A study of Homo sapiens with 6 samples.

Results

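The SR, hnRNP and spliceosome protein genes were the rows of the count table whose symbol begins with SRSF, HNRNP, SF3A, SF3B or SNRP, leaving out 4 pseudogene rows and 1 row whose symbol names it antisense. This gave 54 of the table's 23250 genes: 12 SR protein genes, 21 hnRNP genes, 3 SF3A genes, 6 SF3B genes and 12 SNRP genes. RNA was sequenced from OCI-LY1, an established human line of diffuse large B cell lymphoma, in which siRNA against BCL6 was followed by expression of a BCL6 copy. In the mutant rescue (3 libraries) that copy carried the RD2 mutation, and in the wild-type rescue (3 libraries) it was wild-type BCL6, so both groups had the siRNA and an introduced copy. BCL6 is a transcriptional repressor of germinal centre B cells and RD2 is its second repression domain. The comparison asks which transcripts differ between the rescues, and no label says that a group's libraries were grown apart, so p-values cover the spread between these libraries only, which may be technical.

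Introns are removed from pre-mRNA by the spliceosome, which is built from small nuclear ribonucleoproteins (snRNPs), most of them an RNA carried in a ring of Sm proteins, or of the related LSm proteins for U6, with further proteins of their own. SF3A and SF3B belong to the U2 snRNP and hold it at the branch point. SR proteins bind exons through RNA recognition motifs and recruit the splicing machinery through arginine and serine rich tails, whereas hnRNP proteins coat nascent transcripts and often oppose SR proteins at neighbouring sites. B cells use such choices of splice and polyadenylation site, for example between the membrane and secreted forms of immunoglobulin heavy chains.

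Total counts were 26298456 to 26966183 in the mutant rescue and 26477404 to 27574867 in the wild-type rescue, and values below are CPM, read counts relative to a library total scaled by trimmed mean of M values (TMM). BCL6 has 1 row, and whether it holds reads of the introduced copy as well as of the cell's own transcript is not given. The row held 511 to 529 CPM in the mutant rescue and 651 to 696 CPM in the wild-type rescue (log2 -0.38, SE 0.0317; edgeR, adjusted p = 7.9e-10). The counts of BCL6 itself thus differed between the groups, and the part of BCL6 level in any result was not tested. B cell markers were abundant in all libraries (9 of 9 detected, summing to 3400 to 3490 CPM in the mutant rescue and 3780 to 3840 CPM in the wild-type rescue), but they did not move together: 5 rose and 4 fell, among them MS4A1 (CD20) at 107 ± 4 CPM in the mutant rescue and 583 ± 17 CPM in the wild-type rescue and EBF1 at 243 ± 4.95 CPM in the mutant rescue and 126 ± 1.96 CPM in the wild-type rescue (SD, n = 3 each; edgeR, adjusted p = 4.14e-22 and 6.01e-16). Their part in the results below was not tested. T cell markers summed to 0.224 to 0.451 CPM in the mutant rescue and 0.183 to 0.268 CPM in the wild-type rescue, with CD3E, CD2 and CD8B at 0, and myeloid markers to 0.522 to 0.821 CPM in the mutant rescue and 0.11 to 0.306 CPM in the wild-type rescue, with S100A8, CD163 and MPO at 0. Pairs of mutant rescue libraries differed more from each other than counting noise (chi-square per degree of freedom 1.75 to 5.47), as did pairs of wild-type rescue libraries (1.6 to 3.01).

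Some of these genes have near copies elsewhere in the genome, and the labels do not state how reads that fit several places were counted. The first 120 coding bases of HNRNPH1 (chromosome 5) and HNRNPH2 (chromosome X) are shown as a pair of related genes whose transcripts moved in opposite directions. Capitals mark the positions at which they differ, and the sequences come from GENCODE release 29.
HNRNPH1: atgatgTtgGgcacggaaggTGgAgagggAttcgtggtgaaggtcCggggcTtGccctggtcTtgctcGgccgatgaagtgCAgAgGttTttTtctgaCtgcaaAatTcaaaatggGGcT
HNRNPH2: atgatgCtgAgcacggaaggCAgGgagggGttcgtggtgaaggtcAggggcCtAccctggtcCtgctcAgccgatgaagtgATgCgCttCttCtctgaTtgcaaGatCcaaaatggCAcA
The pair differs at 23 of these 120 positions and is 87.2% identical over 1343 aligned bases.

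Copies were counted as the share of all windows of 50 bases in a gene's longest coding sequence that also occur, on either strand, in a transcript of another gene. The share was 83.2% for HNRNPA1, spread over 54 other genes, 89.8% for HNRNPA3, 81.9% for SNRPE and 51.5% for HNRNPA1L2. It was 58.1% for SNRPA1, 53.5% for HNRNPC, 45.6% for HNRNPL, 29.2% for SNRPD1 and 27.9% for SRSF6. Overlapping transcripts count as well, as for SRSF1 at 90.7%, SRSF2 at 89.1% and HNRNPUL2 at 96.4%, whose windows occur in transcripts annotated across the same locus. The share was under 10% for 28 of the 50 tested genes. HNRNPA1 held 445, 464 and 406 counts in the mutant rescue and 404, 411 and 396 in the wild-type rescue, although it encodes one of the best known hnRNP proteins, and its level is therefore uncertain.

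Of the 54 genes, 50 passed the filter on low counts. SRSF12 had 0 to 2 counts per library, and HNRNPCL1, the readthrough row HNRNPUL2-BSCL2 and SNRPN, which encodes an Sm protein, had 0 counts in every library, so these 4 were not tested. Of the coding windows of SNRPN 93.3% also occur in other genes, so its count of 0 does not show that the gene is silent. Among the 50 tested genes 21 were higher and 17 lower in the mutant rescue, and 12 were not called (edgeR, p adjusted by Benjamini-Hochberg over all tested genes, under 0.05). That is 76% called, against 70.1% of all 12406 tested genes. All tested genes gave 35.4% higher and 34.8% lower, so the share of these genes that passed was near that of the table as a whole.

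The changes were small. The median absolute log2 fold change was 0.14 for the 50 genes, against 0.29 for all tested genes, and 0 of the 50 changed 2-fold or more, against 9.51% of all tested genes. Their median log2 fold change was 0.05, against 0.01 for all tested genes. The groups did not overlap for 38 of the 50 genes (76%), against 72.4% of all tested genes. When a change beyond 1.2-fold was required (glmTreat of edgeR, adjusted p under 0.05), 5 of the 50 genes were higher and 2 of the 50 lower. Of all tested genes 37% were called in either direction, a larger share. The 5 higher genes were HNRNPH3, HNRNPA3, HNRNPA1L2, HNRNPF and SRSF4, and the 2 lower ones were HNRNPH2 and SNRPE. All tested genes include rows with few counts, and the comparisons with them were not matched for level.

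**Figure D1:**
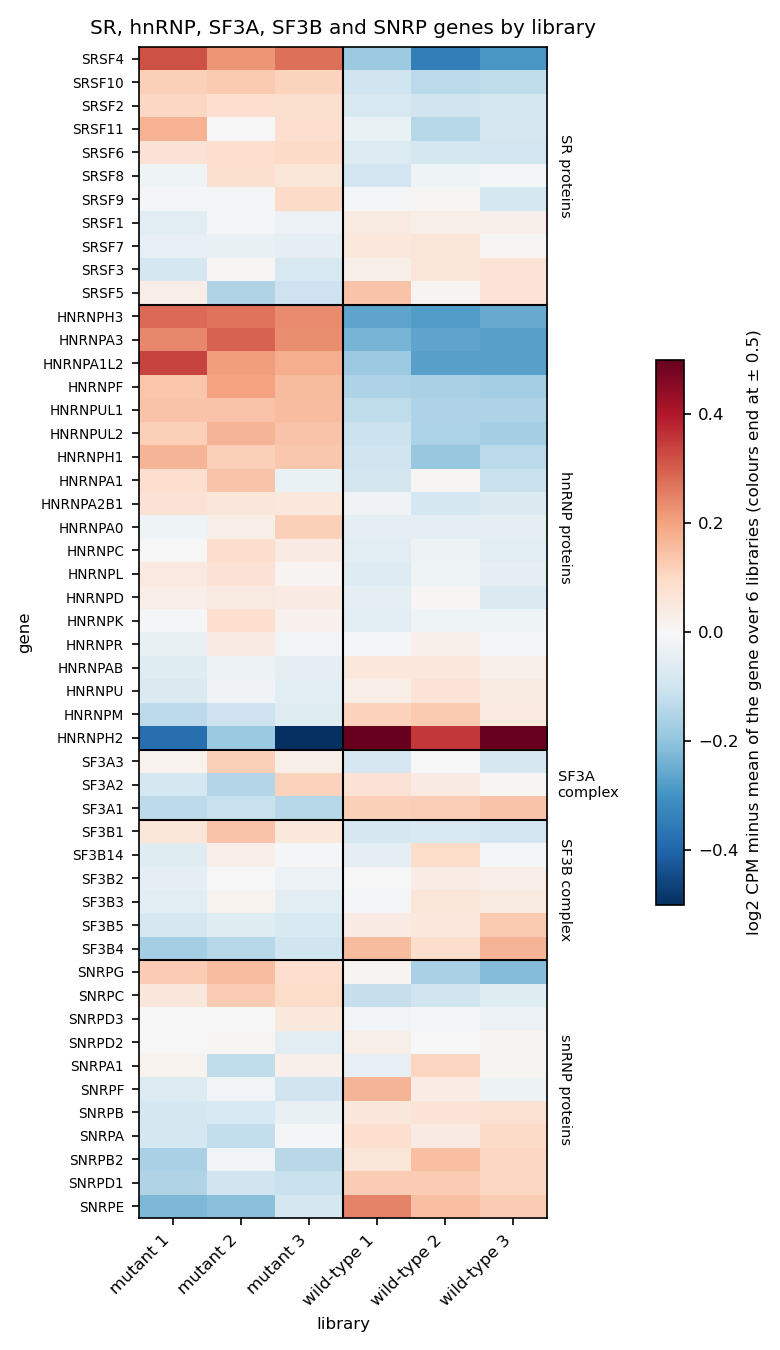
Each row is 1 of the 50 tested genes and each column 1 library, with the 3 mutant rescue libraries left of the 3 wild-type rescue libraries. Colour is log2 CPM minus the gene's mean over the 6 libraries, ending at 0.5 in either direction, and the rows for SRSF4, HNRNPH3, HNRNPA3 and HNRNPA1L2 are red in all mutant rescue libraries and blue in all wild-type rescue libraries.

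**Figure D2:**
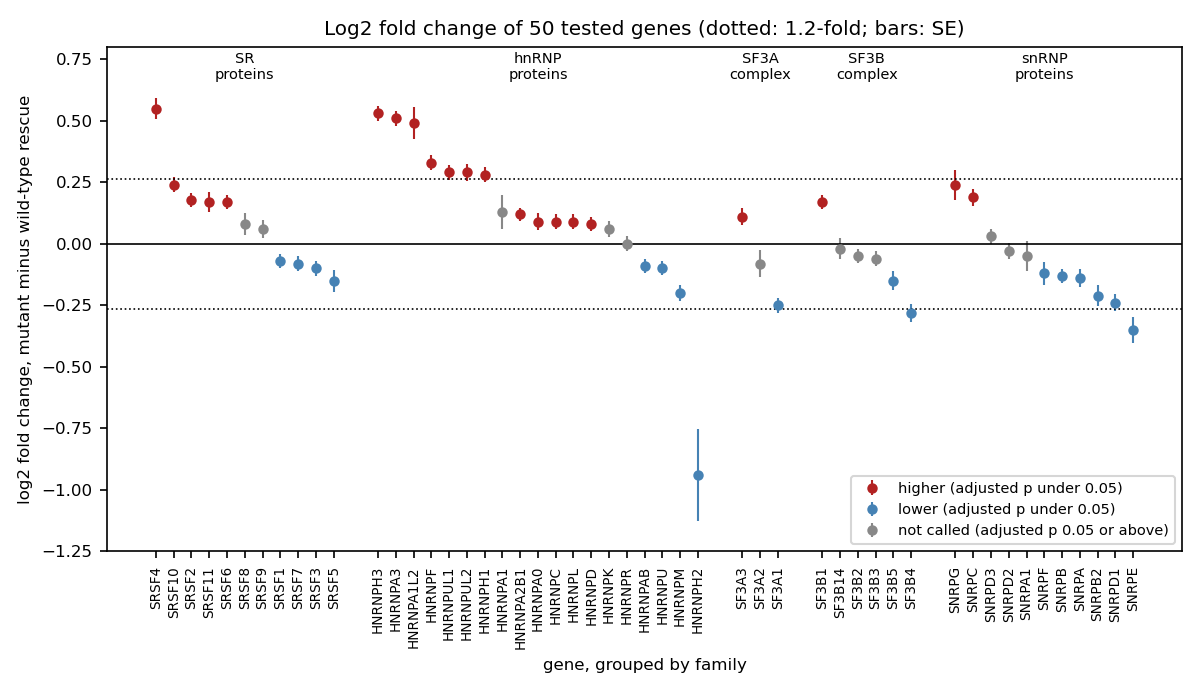
Points are log2 fold changes, mutant rescue minus wild-type rescue, with bars of 1 SE, coloured by call, and dotted lines mark 1.2-fold. The hnRNP genes lie mostly above 0 (median 0.09) and the SNRP genes mostly below it (median -0.12).

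SR proteins bind exonic enhancers, and 5 of the 11 tested SR protein genes rose while 4 fell and 2 were not called, with a median log2 fold change of 0.08. That is 81.8% called, against 70.1% of all tested genes. SRSF4, which encodes the largest of the classical SR proteins, had 138, 129 and 134 CPM in the mutant rescue, against 97.4, 87 and 90.5 CPM in the wild-type rescue. Every mutant rescue library lay above every wild-type rescue library, a 1.46-fold rise (log2 0.55, SE 0.0414; edgeR, adjusted p = 1.95e-10). SRSF4 had no coding window shared with another gene.

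The other increases among SR genes were between 12.3% and 18%. SRSF10, whose protein acts as a repressor of splicing when it is dephosphorylated, had 310, 312 and 308 CPM in the mutant rescue and 266, 260 and 261 CPM in the wild-type rescue. SRSF2 (SC35), a protein of nuclear speckles, had 582, 575 and 574 CPM in the mutant rescue and 513, 506 and 510 CPM in the wild-type rescue. Both genes were tightly grouped, with the libraries of a rescue closer to each other than to any library of the other rescue (SRSF10 log2 0.24, SE 0.03; SRSF2 log2 0.18, SE 0.0284; edgeR, adjusted p = 4.55e-07 and 9.94e-06). SRSF11 averaged 309 ± 18.6 CPM in the mutant rescue and 274 ± 10.6 CPM in the wild-type rescue (SD, n = 3 each; log2 0.17; edgeR, adjusted p = 0.000996), and SRSF6 rose by the same log2 0.17. The call for SRSF11 was lost once trends with GC and length were removed (log2 0.12; edgeR, adjusted p = 0.199).

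The other 4 SR genes called were lower, the smallest change being that of SRSF1, which fell by 4.51%, and the largest that of SRSF5, which fell by 9.84%. SRSF3 and SRSF7 encode small SR proteins that also serve as adaptors for mRNA export. SRSF3 had 556, 593 and 559 CPM in the mutant rescue and 602, 616 and 618 CPM in the wild-type rescue (log2 -0.10, SE 0.0315; edgeR, adjusted p = 0.00623), and SRSF7 had 301, 302 and 300 CPM in the mutant rescue and 321, 323 and 311 CPM in the wild-type rescue (log2 -0.08; edgeR, adjusted p = 0.0227). SRSF1, the founding SR protein gene and one with oncogenic activity, averaged 810 ± 12.8 CPM in the mutant rescue and 848 ± 5.6 CPM in the wild-type rescue (SD, n = 3 each; log2 -0.07; edgeR, adjusted p = 0.0411). SRSF5 was the least even, with 242, 213 and 220 CPM in the mutant rescue and 261, 239 and 248 CPM in the wild-type rescue, so its groups overlapped although the model called it lower (log2 -0.15; edgeR, adjusted p = 0.00795). In each rescue library 2 was the lowest for SRSF5.

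These small falls depended on single libraries and on the scaling. With library size scaling 7 SR genes were higher and 1 was lower, SRSF3 alone being called lower. Without wild-type library 1 there was 1 lower SR gene, and without mutant library 3 or wild-type library 2 there were 2. SRSF1 passed when mutant library 2 was left out but not when any of the other 5 libraries was (edgeR, adjusted p = 0.0713 to 0.135). SRSF7 was not called without mutant library 3 (adjusted p = 0.0667) or without wild-type library 1 (0.0571) or 2 (0.0884) in the edgeR fit, and SRSF5 was not called without mutant library 2 (0.0662) or wild-type library 1 (0.066), nor once GC and length trends were removed (log2 -0.18; edgeR, adjusted p = 0.0756). SRSF8 (log2 0.08; edgeR, adjusted p = 0.0985) and SRSF9 (log2 0.06; edgeR, adjusted p = 0.168) did not pass, but SRSF8 passed without mutant library 1 (log2 0.11; edgeR, adjusted p = 0.0442) and both passed with library size scaling.

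Among genes of hnRNP proteins, which coat nascent transcripts, 12 of 19 tested genes rose while 4 fell and 3 were not called, with a median log2 fold change of 0.09. That is 84.2% called, against 70.1% of all tested genes, where 35.4% were higher and 34.8% lower. After removal of GC content and length trends 8 rose and 5 fell, and with library size scaling 13 rose and 4 fell. The 21 genes together took 1.12% to 1.13% of all counts in the mutant rescue and 1.02% to 1.03% in the wild-type rescue. HNRNPA2B1 alone took 0.288% to 0.298% in the mutant rescue and 0.258% to 0.273% in the wild-type rescue, and without it the sum was 0.833% to 0.834% in the mutant rescue and 0.754% to 0.762% in the wild-type rescue. In bulk libraries a larger share of cells with a transcript and more transcript per cell cannot be told apart.

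HNRNPH3 and HNRNPF belong to the H and F group, which binds runs of G in RNA. HNRNPH3 had 396, 392 and 383 CPM in the mutant rescue, against 271, 268 and 273 CPM in the wild-type rescue. The groups were far apart relative to their spread, at 1.44-fold (log2 0.53, SE 0.0301; edgeR, adjusted p = 2.03e-12). HNRNPF had 725, 756 and 734 CPM in the mutant rescue and 591, 588 and 583 CPM in the wild-type rescue (log2 0.33, SE 0.0291; edgeR, adjusted p = 2.16e-09), and no library of one rescue reached the range of the other. HNRNPH1 rose as well, with 967 ± 18.1 CPM in the mutant rescue and 795 ± 25.4 CPM in the wild-type rescue (SD, n = 3 each; log2 0.28; edgeR, adjusted p = 5.39e-08).

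HNRNPH2, the X-linked relative of HNRNPH1 printed above, was the exception in this group. It had 36, 41 and 25 counts in the mutant rescue and 71, 58 and 68 counts in the wild-type rescue. All mutant rescue libraries were lower, by 1.91-fold (log2 -0.94, SE 0.186; edgeR, adjusted p = 0.000146), but with so few counts the size is uncertain, and 20.9% of its coding windows occur in other genes, first among them the readthrough RPL36A-HNRNPH2. HNRNPH1, HNRNPH2, HNRNPH3 and HNRNPF thus did not move as 1 group.

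Among the A and B type hnRNPs, which package transcripts and repress nearby splice sites, HNRNPA3 had 352, 366 and 350 CPM in the mutant rescue and 254, 248 and 247 CPM in the wild-type rescue. The groups did not overlap and the rise was 1.43-fold (log2 0.51, SE 0.0313; edgeR, adjusted p = 5.93e-12). HNRNPA1L2 had 24, 21.9 and 21.5 CPM in the mutant rescue and 16.7, 15.7 and 15.7 CPM in the wild-type rescue, again without overlap (log2 0.49, SE 0.0647; edgeR, adjusted p = 1.06e-06). Both genes have copies, so part of either row may belong to another locus. HNRNPA1 itself was not called (log2 0.13, SE 0.0699; edgeR, adjusted p = 0.108), though it passed without mutant library 3 (log2 0.18; edgeR, adjusted p = 0.0483). HNRNPA2B1, the partner of A1 in hnRNP particles, averaged 2900 ± 21.7 CPM in the mutant rescue and 2670 ± 68 CPM in the wild-type rescue (SD, n = 3 each; log2 0.12; edgeR, adjusted p = 0.000617), a call lost after removal of GC content and length trends (log2 0.05; edgeR, adjusted p = 0.104).

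HNRNPUL1 and HNRNPUL2, relatives of the nuclear scaffold protein HNRNPU, each rose 1.22-fold (edgeR, adjusted p = 1.82e-08 and 1.19e-07). HNRNPUL1 averaged 414 ± 1.33 CPM in the mutant rescue and 339 ± 4.23 CPM in the wild-type rescue, and HNRNPUL2 196 ± 3.68 CPM in the mutant rescue and 161 ± 3.71 CPM in the wild-type rescue (SD, n = 3 each). HNRNPU moved the other way, with 28623, 29700 and 28746 counts in the mutant rescue and 31456, 30888 and 31588 in the wild-type rescue (log2 -0.10, SE 0.0284; edgeR, adjusted p = 0.00377). HNRNPM, which regulates alternative exons through GU-rich sites, fell to 592, 603 and 622 CPM in the mutant rescue, against 702, 709 and 671 CPM in the wild-type rescue, with no overlap (log2 -0.20, SE 0.0313; edgeR, adjusted p = 1.07e-05). HNRNPAB fell by 5.98% (log2 -0.09; edgeR, adjusted p = 0.0102).

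Smaller increases, of 5.54% to 6.48%, were called for HNRNPD (AUF1, a regulator of mRNA decay), HNRNPC (which binds runs of U), HNRNPL (which binds CA repeats) and HNRNPA0. HNRNPC and HNRNPL kept their calls when any 1 library was left out, but 53.5% and 45.6% of their coding windows also occur in other genes. HNRNPD was not called without mutant library 3 (edgeR, adjusted p = 0.0719), wild-type library 1 (0.0678) or wild-type library 3 (0.123), and HNRNPA0 was not called without the same libraries (0.229, 0.0583 and 0.0681). DESeq2 did not call HNRNPA0 (adjusted p = 0.0513), and without the filter on low counts edgeR did not call HNRNPD (adjusted p = 0.0724). After removal of GC content and length trends HNRNPA0, HNRNPC and HNRNPD were not called (log2 0.03, 0.04 and 0.01). HNRNPK, which binds runs of C, averaged 705 ± 23.8 CPM in the mutant rescue and 675 ± 8.47 CPM in the wild-type rescue and was not called (SD, n = 3 each; log2 0.06; edgeR, adjusted p = 0.0715), but it passed with library size scaling (edgeR, adjusted p = 0.00404), with the replicate number as a block (0.00866) and without mutant library 1 (0.0293). HNRNPR was at 501 ± 14.7 CPM in the mutant rescue and 503 ± 6.33 CPM in the wild-type rescue (SD, n = 3 each; edgeR, adjusted p = 0.892), but was called lower after removal of GC content and length trends (log2 -0.09; edgeR, adjusted p = 0.00343).

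**Figure D3:**
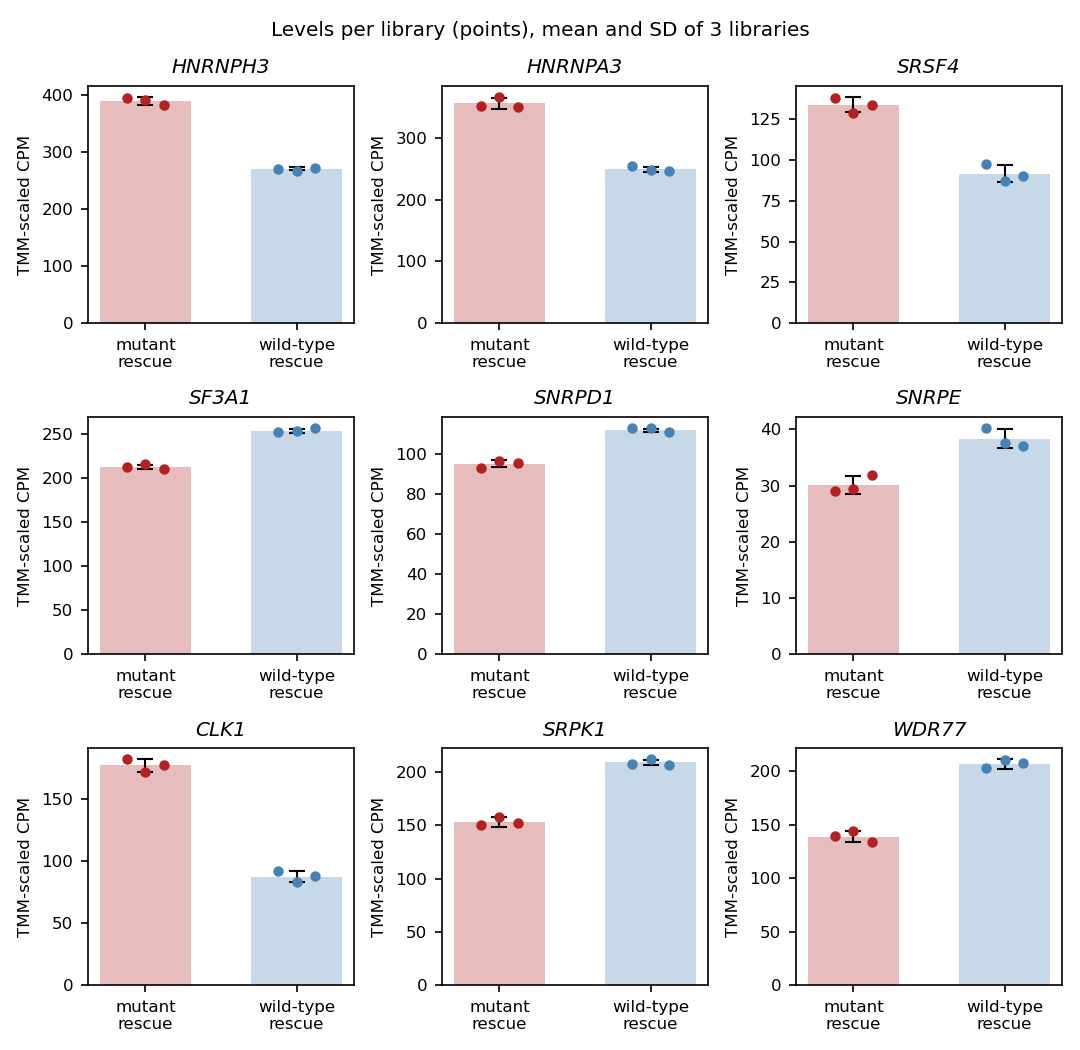
Bars are means of TMM-scaled CPM with SD over 3 libraries and points are the libraries, mutant rescue left of wild-type rescue, for 6 of the splicing protein genes and for CLK1, SRPK1 and WDR77 from the related lists. HNRNPH3, HNRNPA3, SRSF4 and CLK1 are higher and SF3A1, SNRPD1, SNRPE, SRPK1 and WDR77 lower in all 3 mutant rescue libraries.

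The U2 snRNP factors of SF3A and SF3B did not share a direction. SF3A1, the SF3A subunit that contacts U1 as well as U2, had 213, 216 and 211 CPM in the mutant rescue and 253, 254 and 257 CPM in the wild-type rescue. The groups were separate and SF3A1 fell 1.19-fold (log2 -0.25, SE 0.0305; edgeR, adjusted p = 2.42e-07). SF3A3 rose slightly, with 224, 240 and 226 CPM in the mutant rescue and 209, 221 and 209 CPM in the wild-type rescue (log2 0.11, SE 0.0352; edgeR, adjusted p = 0.00712). SF3A2 averaged 76.7 ± 7.41 CPM in the mutant rescue and 80.9 ± 1.86 CPM in the wild-type rescue and was not called (SD, n = 3 each; log2 -0.08; edgeR, adjusted p = 0.232). Without mutant library 3 it was called lower (log2 -0.16; edgeR, adjusted p = 0.00491), as it was with all libraries once GC content and length trends were removed (log2 -0.08; edgeR, adjusted p = 0.0451), and either way 2 of the 3 SF3A genes were lower.

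Of the 6 SF3B genes 1 rose while 2 fell and 3 were not called (50% called, against 70.1% of all tested genes). SF3B1, the branch point clamp that is recurrently mutated in blood cancers, had 845, 893 and 839 CPM in the mutant rescue, against 765, 769 and 757 CPM in the wild-type rescue. Each mutant rescue library was above all wild-type rescue libraries, a rise of 12.4% (log2 0.17, SE 0.0304; edgeR, adjusted p = 4.7e-05). SF3B4, the subunit that lies on the pre-mRNA near the branch point, had 102, 104 and 107 CPM in the mutant rescue and 128, 122 and 129 CPM in the wild-type rescue (log2 -0.28, SE 0.0359; edgeR, adjusted p = 6.55e-07). SF3B5, a small structural subunit, fell by 9.9% (log2 -0.15; edgeR, adjusted p = 0.00147).

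SF3B2 (log2 -0.05; edgeR, adjusted p = 0.166), SF3B3 (log2 -0.06; edgeR, adjusted p = 0.0718) and SF3B14 (log2 -0.02; edgeR, adjusted p = 0.643), the last now named SF3B6, did not pass. Without mutant library 2 SF3B2 and SF3B3 both passed (log2 -0.06 and -0.09; edgeR, adjusted p = 0.0229 and 0.00134), giving 4 lower SF3B genes. SF3B3 also passed without wild-type library 1 (log2 -0.09; edgeR, adjusted p = 0.0254), giving 3, as it did with the replicate number as a block, and 4 were lower after removal of GC content and length trends.

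The SNRP genes encode the Sm ring and proteins of the U1 and U2 snRNPs, and 2 of 11 tested rose while 6 fell and 3 were not called, with a median of -0.12. That is 72.7% called, against 70.1% of all tested genes, where 35.4% were higher and 34.8% lower. Together the 12 rows took 0.14% to 0.143% of counts in the mutant rescue and 0.146% to 0.147% in the wild-type rescue. Of the Sm ring, SNRPE had 29, 29.3 and 31.9 CPM in the mutant rescue and 40.2, 37.6 and 37 CPM in the wild-type rescue. It fell 1.27-fold with no overlap (log2 -0.35, SE 0.0528; edgeR, adjusted p = 5.75e-06), but most of its coding windows occur in copies. SNRPD1 had 93.2, 96.6 and 95.7 CPM in the mutant rescue and 113, 113 and 111 CPM in the wild-type rescue, and so fell by 15.1% (log2 -0.24, SE 0.0347; edgeR, adjusted p = 3.71e-06). Of its coding windows 29.2% also occur in other genes. SNRPB, which encodes the B and B' Sm proteins, fell by 8.9% (log2 -0.13; edgeR, adjusted p = 0.000403).

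Other parts of the ring differed. SNRPG rose, with 26.4, 26.9 and 25.6 CPM in the mutant rescue and 24.4, 21.6 and 20.8 CPM in the wild-type rescue (log2 0.24, SE 0.062; edgeR, adjusted p = 0.00179), and 48.1% of its coding windows occur in other genes. SNRPF was called lower (log2 -0.12; edgeR, adjusted p = 0.0257) although its groups overlapped, at 60.5, 62.7 and 59.1 CPM in the mutant rescue and 71.2, 65 and 62.3 CPM in the wild-type rescue. It was not called without wild-type library 1 (log2 -0.07; edgeR, adjusted p = 0.208) or mutant library 3 (log2 -0.11; edgeR, adjusted p = 0.0985), or with library size scaling (log2 -0.10; edgeR, adjusted p = 0.0717). SNRPD2 (log2 -0.03; edgeR, adjusted p = 0.41) and SNRPD3 (log2 0.03; edgeR, adjusted p = 0.337) did not pass.

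Among proteins that belong to a single snRNP, the U1 genes split. SNRPC, a U1 protein that stabilises pairing with the 5' splice site, rose to 125, 131 and 128 CPM in the mutant rescue, against 111, 112 and 115 CPM in the wild-type rescue (log2 0.19, SE 0.0346; edgeR, adjusted p = 5.74e-05). SNRPA, which binds a stem-loop of U1 snRNA, fell to 139, 136 and 147 CPM in the mutant rescue, against 157, 152 and 158 CPM in the wild-type rescue (log2 -0.14, SE 0.0361; edgeR, adjusted p = 0.00138). Neither gene had overlapping groups. SNRPB2, a U2 protein, had 66.3, 73.6 and 67.4 CPM in the mutant rescue and 77.4, 82.4 and 79.8 CPM in the wild-type rescue (log2 -0.21, SE 0.0439; edgeR, adjusted p = 0.000265), whereas its U2 partner SNRPA1 was not called (log2 -0.05; edgeR, adjusted p = 0.431).

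The genes that rose and those that fell differed in median transcript length, a difference that was not tested. The longest annotated transcript had a median of 4008 bases for the 21 higher genes and 2452 bases for the 17 lower genes. The median was 2691 bases for the 12 genes not called and 3626 bases over all tested genes with a value. The lower genes included HNRNPU, at 13084 bases. Median GC content was 41% for the higher and 42.1% for the lower genes, against 48% for all tested genes. By family, the median length was 4121 bases for tested hnRNP genes and 1389 bases for tested SNRP genes. After smooth trends with both properties were removed, 16 of the 50 genes were higher and 20 lower, so that 44.4% of the called genes were higher, against 55.3% before, and with library size scaling 24 were higher and 13 lower (64.9%). The direction of the majority therefore turned with that correction, and whether length accounts for any single call was not tested.

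Promoter sequences are shown for 2 of the genes that rose and 2 that fell. Windows from 250 bases before to 50 bases after the annotated start matched 50 of the 54 genes by symbol. They were searched on both strands for CACGTG (E-box, bound by MYC and related factors), CCGGAAG (bound by ETS factors) and TTCCTNGAA (a BCL6 site), and no matches of different motifs overlapped. The printed sequences are the 250 bases before the start, 5' to 3' on the strand of the gene, from RefSeq on GRCh38.p14, with matches in capitals. HNRNPH3 (chr10:68331443-68331692, plus strand) and HNRNPA3 (chr2:177212544-177212793, plus strand) rose, and SF3A1 (chr22:30356895-30357144, minus strand) and SF3B4 (chr1:149927804-149928053, minus strand) fell.
HNRNPH3: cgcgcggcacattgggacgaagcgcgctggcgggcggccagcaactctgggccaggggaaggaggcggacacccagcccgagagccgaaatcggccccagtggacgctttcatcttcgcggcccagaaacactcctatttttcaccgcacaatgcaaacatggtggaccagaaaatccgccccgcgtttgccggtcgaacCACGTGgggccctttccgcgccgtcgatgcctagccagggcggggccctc
HNRNPA3: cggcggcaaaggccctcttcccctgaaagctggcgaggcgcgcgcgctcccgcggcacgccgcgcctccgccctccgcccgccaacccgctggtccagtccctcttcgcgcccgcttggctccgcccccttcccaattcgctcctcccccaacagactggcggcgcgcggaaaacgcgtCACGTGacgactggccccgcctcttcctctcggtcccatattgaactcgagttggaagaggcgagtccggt
SF3A1: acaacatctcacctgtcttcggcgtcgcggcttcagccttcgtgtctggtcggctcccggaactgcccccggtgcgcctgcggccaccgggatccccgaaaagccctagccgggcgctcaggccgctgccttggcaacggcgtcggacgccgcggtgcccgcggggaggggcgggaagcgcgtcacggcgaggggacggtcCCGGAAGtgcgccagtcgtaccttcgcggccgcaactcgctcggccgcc
SF3B4: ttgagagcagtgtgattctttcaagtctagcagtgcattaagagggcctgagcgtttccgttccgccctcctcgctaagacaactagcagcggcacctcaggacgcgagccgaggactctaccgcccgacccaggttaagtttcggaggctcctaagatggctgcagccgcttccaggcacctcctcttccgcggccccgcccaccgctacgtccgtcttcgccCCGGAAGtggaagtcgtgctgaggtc
The E-box letters lie in both hnRNP windows and the ETS letters in both SF3 windows. This split by direction did not hold for all genes. SRSF4, HNRNPF and SF3A3 rose and had ETS letters, and HNRNPM and HNRNPH2 fell and had E-box letters.

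Over the families, CCGGAAG was found in 3 of 3 SF3A, 3 of 5 SF3B and 7 of 11 SNRP windows, but in 2 of 11 SR and 2 of 20 hnRNP windows. It was in 34% of the 50 windows, against 10.3% of all 35116 promoters in the table and 20.1% of the 8592 promoters matched to tested genes. CACGTG was found in 6 of 20 hnRNP windows and 1 of 5 SF3B windows and in no other, 14% of the 50, against 7.26% of all promoters and 10.5% of those of tested genes. TTCCTNGAA was found in 0 of the 50, against 1.56% of all promoters and 0.919% of those of tested genes. This says only that these letters are absent from these windows. By call, the E-box letters were in 5 of 20 windows of higher genes and 2 of 16 of lower genes, and the ETS letters in 6 of 20 and 6 of 16. Among genes that were not called the E-box letters were in 0 of 10 windows and the ETS letters in 5 of 10.

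The tails of SR proteins are phosphorylated by SRPK kinases, mainly in the cytoplasm, and by CLK kinases in the nucleus, which sets their location and activity. Of the 8 tested SR protein kinase genes 6 rose and 2 fell, so that 100% were called, against 70.1% of all tested genes. CLK1 had 182, 172 and 177 CPM in the mutant rescue, against 91.7, 82.7 and 87.7 CPM in the wild-type rescue, a 2.03-fold rise without overlap (log2 1.02, SE 0.0391; edgeR, adjusted p = 3e-15). All 4 CLK genes were higher, CLK4 by 1.75-fold, CLK3 by 1.34-fold and CLK2 by 1.21-fold, and so were DYRK1A (1.43-fold; edgeR, adjusted p = 2.45e-11) and SRPK2 (1.5-fold). SRPK1 had 150, 158 and 152 CPM in the mutant rescue and 208, 212 and 207 CPM in the wild-type rescue, a fall of 0.45 on the log2 scale (SE 0.0331; edgeR, adjusted p = 1.5e-10), and PRPF4B fell as well (log2 -0.21; edgeR, adjusted p = 6.41e-06).

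Assembly of Sm rings on snRNA, by the SMN complex and the PRMT5 methylosome, had the fewest increases of the 8 related lists. Among 15 tested genes 1 rose while 11 fell and 3 were not called (80% called, against 70.1% of all tested genes, of which 34.8% were lower), with a median log2 fold change of -0.25, against 0.01 for all tested genes. WDR77, the partner of the Sm protein methyltransferase PRMT5, had 140, 144 and 134 CPM in the mutant rescue and 203, 211 and 208 CPM in the wild-type rescue (log2 -0.57, SE 0.0352; edgeR, adjusted p = 6.51e-12). TGS1, which forms the trimethyl cap of snRNA, had 137, 147 and 134 CPM in the mutant rescue and 197, 208 and 199 CPM in the wild-type rescue (log2 -0.53, SE 0.0379; edgeR, adjusted p = 7.96e-11). For both genes the groups lay well apart. The 1 gene that rose was PHAX, the snRNA export adaptor (log2 0.11; edgeR, adjusted p = 0.0387), and it was not called with RLE scaling (adjusted p = 0.0546), DESeq2 (0.0999), or without mutant library 2 (0.0623), mutant library 3 (0.0787), wild-type library 1 (0.257) or wild-type library 3 (0.0535). Its call was also lost after removal of GC content and length trends (log2 0.07; edgeR, adjusted p = 0.0976). The near-identical SMN1 and SMN2 had 0 counts in all 6 libraries. Since the rule for reads with several matches is not given, this does not show that either gene was silent.

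Other snRNP proteins, whose symbols lack the SNRP prefix, also gave more falls than increases, with 7 of 32 higher, 19 lower and 6 not called (median -0.12; 81.2% called, against 70.1% of all tested genes). ZCRB1 and SNRNP48, both of the minor spliceosome, moved apart, ZCRB1 to 53.8 ± 2.82 CPM in the mutant rescue against 70.2 ± 1.85 CPM in the wild-type rescue and SNRNP48 to 35 ± 1.18 CPM in the mutant rescue against 26.7 ± 1.51 CPM in the wild-type rescue (SD, n = 3 each; edgeR, adjusted p = 1.41e-07 and 1.75e-06). NHP2L1, a U4 snRNP protein, fell (log2 -0.27), and the row labelled NAA38, a symbol that has been used for more than one gene, rose (log2 0.40). Among hnRNP proteins under other symbols 4 of 12 rose while 4 fell and 4 were not called (66.7% called). HNRPLL, a regulator of CD45 exon choice in lymphocytes, had 15.7, 17.7 and 17 CPM in the mutant rescue and 6.82, 6.66 and 7.59 CPM in the wild-type rescue, a 2.39-fold rise (log2 1.26, SE 0.0815; edgeR, adjusted p = 1.68e-11). RBMX rose (log2 0.24), and SYNCRIP (log2 -0.10) and PTBP1 (log2 -0.09), the pyrimidine tract repressor, fell slightly. The count of lower genes on that list was 2 with library size scaling or without mutant library 3 or any 1 wild-type library, and 1 without mutant library 1. PTBP1 was not called without mutant library 1 (edgeR, adjusted p = 0.0695) or wild-type library 3 (0.0554), and SYNCRIP, whose groups overlapped, was not called without mutant library 1 (0.0538), mutant library 3 (0.0859) or wild-type library 2 (0.0516).

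Branch point and 3' splice site factors gave 4 higher, 5 lower and 7 not called of 16, where RBM5 (log2 0.36) and RBM17 (log2 0.25) rose and DHX15 (log2 -0.26) and U2SURP (log2 -0.18) fell, and U2AF1 did not pass (172 ± 1.1 CPM in the mutant rescue and 172 ± 1.27 CPM in the wild-type rescue; SD, n = 3 each). Of 30 catalytic activation and step factors 14 rose while 10 fell and 6 were not called. PRPF38B (log2 0.34) and SLU7 (log2 0.29), a factor of the second catalytic step, rose, and the isomerase PPIL1 (log2 -0.62) and the ubiquitin ligase PRPF19 (log2 -0.32) fell. Of 20 SR-related proteins 8 rose while 5 fell and 7 were not called, RBM39 (log2 0.57) and SFSWAP (log2 0.39) rising and SRRM1 (log2 -0.31) and the speckle scaffold SON (log2 -0.15) falling. The 5 lower SR-related genes became 3 without wild-type library 3 or with library size scaling. Of 15 exon junction and nonsense-mediated decay factors 5 rose while 3 fell and 7 were not called, with SMG9 (log2 0.69) and UPF3B (log2 0.36) rising and the helicase UPF1 (log2 -0.27) and SMG5 (log2 -0.19) falling. Beside the 70.1% called over all tested genes, these lists had 56.2% (branch point), 80% (catalytic), 65% (SR-related) and 53.3% (decay) called.

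**Figure D4:**
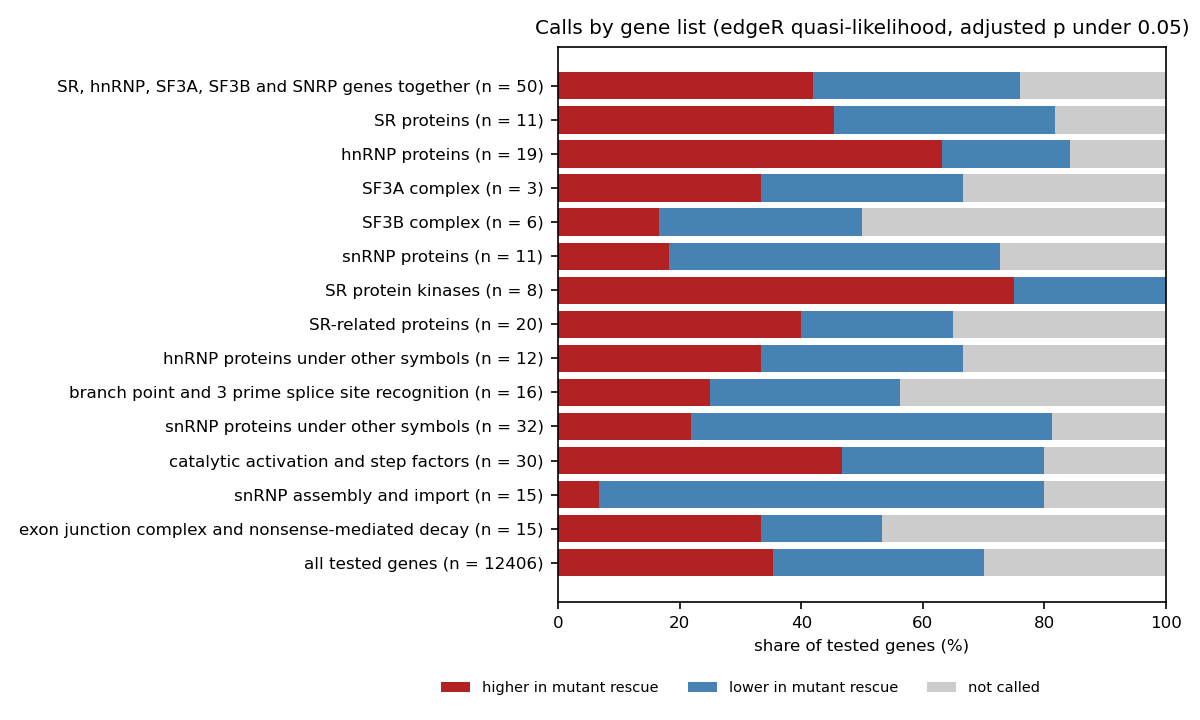
Stacked bars give the share of tested genes on each list that were higher (red), lower (blue) or not called (grey) in the mutant rescue, with the number tested in brackets and all tested genes at the bottom. Red is widest for the SR protein kinases (6 of 8) and narrowest for snRNP assembly and import (1 of 15).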

How the data were processed

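The table deposited by the authors holds raw counts of reads per gene symbol, 1 column per library, with replicates not pooled. The tools named, per the submitters' processing notes, are STAR, edgeR and CASAVA 1.8.2, and the build is hg19. Per the labels' protocols, Trizol RNA was made into TruSeq libraries. The read counter, annotation, strand setting and rule for reads with several matches stay unknown (not given in the sources used here), so overlapping and near-identical genes are uncertain.

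Libraries were grouped by their labels. Counts were analysed in R 4.3.3 with edgeR 4.0.16: filterByExpr at its defaults kept 12406 of 23250 genes, TMM scaling and a robust quasi-likelihood fit with group as the only term followed, and p-values were adjusted over every tested gene and called under 0.05. The SE of a log2 fold change is its size divided by the root of the F statistic. A floor of 3 counts equals 0.109 to 0.114 CPM, and covers counting error only. With 3 libraries a group, exact permutation reaches p = 0.1 at the lowest. The fit was tested on simulated data. Alternatives were RLE and library size scaling, DESeq2 1.42.0, no filter, glmTreat at 1.2-fold, a replicate block and leaving out each library. Removal of GC content and length trends (mgcv 1.9.3, longest GENCODE v29 transcript, available for 95.4% of tested genes) and a limit on shared windows were chosen after seeing the data.

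The genes and lists were chosen with earlier results of these data known. In each family the rule named up to 4 higher and 4 lower genes with the largest change whose groups did not overlap and whose mean count reached 50, and up to 3 not called with the highest count; from each other list it named, by smallest p, 2 genes in each direction. Genes named beyond it were chosen after their values were seen.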

Additional observations from a re-analysis of the deposited data

How the results depend on the processing

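The counts of 21 higher and 17 lower genes stayed within 1.5 times under RLE and library size scaling, DESeq2, no filter, the replicate block, removal of GC content and length trends and each library left out. Against 1.2-fold (glmTreat) they were 5 and 2, and over all genes 4585 in place of 8702, as a minimum change requires. Among the 28 tested genes with under 10% shared windows 11 were higher and 10 lower, fewer because fewer genes enter. The median log2 fold change of the 50 genes (0.047) was 0.073 with library size scaling and 0.021 without GC content and length trends, and 0.02 to 0.06 with 1 library left out; the cause was not tested. The sign of 2 genes that were not called turned: HNRNPR to 0.02 and SF3B14 to 0 with library size scaling, and with 1 library left out HNRNPR ranged from -0.03 to 0.01 and SF3B14 from -0.05 to 0.02 (HNRNPR 0.01 and SF3B14 0 without mutant library 1, 0.01 and 0.02 without wild-type library 2). Deviations of same-numbered libraries correlated at 0.2, 0.24 and -0.07, and those of differently numbered libraries at -0.25 to 0.11. The labels do not say what the replicate numbers stand for, so whether they pair the libraries is not known. As a replicate block the numbers gave 9285 calls over all genes, with 22 of the 50 genes higher and 18 lower. Depth was ample for all tested genes but HNRNPH2, whose counts were below 100.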

Other observations

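Among the rows left out, HNRNPU-AS1, a symbol that names an antisense RNA but that RefSeq now lists as a synonym of HNRNPU itself, had 645, 488 and 525 counts in the mutant rescue and 338, 223 and 287 counts in the wild-type rescue. It was 1.97-fold higher in the mutant rescue with no overlap (log2 0.98, SE 0.153; edgeR, adjusted p = 0.000756), while HNRNPU was 6.7% lower. In both rescues library 1 had the most counts of this row and library 2 the fewest. Whether this row holds antisense reads or a part of HNRNPU cannot be told from the table, since the strand setting and the row's coordinates are not given. The pseudogene row HNRNPA3P1 had 19, 23 and 22 counts in the mutant rescue and 19, 17 and 21 in the wild-type rescue and did not pass (edgeR, adjusted p = 0.552), whereas HNRNPA3 rose 1.43-fold. The helicase gene DDX39B, a partner of U2AF2 in spliceosome assembly chosen after its values were seen, had 5 or 6 counts per mutant rescue library and 2 to 5 per wild-type rescue library and was not tested. How reads with several matches were counted is not given, so this does not show that DDX39B was silent.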
